A study of Mus musculus with 16 samples.

Results

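Retinas injected with Dll4-Fc were compared with retinas injected with VEGF-A across all genes on a mouse expression array. The samples were chosen by their treatment label alone, 4 arrays labelled Dll4-Fc and 5 labelled VEGFA, so 9 of the 16 arrays of the series. Both groups were retinas of C57Bl6 pups, given an injection into the vitreous at 8 days of age and taken 24 h later. The dose was 4 µg of Dll4-Fc, a soluble form of the Notch ligand Dll4 joined to an antibody Fc part, or 1 µg of VEGF-A. The doses differ, and the VEGF-A samples received no Fc part, so differences due to Dll4, to Fc and to dose cannot be told apart here. The hFc arrays were left out of the comparison. Values of the 3 VEGF Trap arrays, whose age and dose the labels do not give, are shown beside some results as a description. Each array carried the sample in Cy3 and a common reference in Cy5, an equal pool of RNA from the experiment. A level below is the log2 of sample over this pool, 0 means the level of the pool, and a difference is the mean level of Dll4-Fc minus that of VEGF-A on the log2 scale. A positive difference therefore means higher in Dll4-Fc. Whether the samples were separate pups is not stated in the labels, so the p-values measure the spread between these samples, which may be technical.

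VEGF-A is the main growth factor of blood vessels and acts on endothelial cells through the receptor Kdr, with Flt1 as a receptor that binds it away. At the front of a growing retinal vessel, tip cells respond to VEGF-A and raise Dll4, which activates Notch on the neighbouring endothelial cells and keeps them from becoming tip cells. Soluble Dll4-Fc is used as a blocker of this signal. In the retina Notch also acts outside vessels, where it keeps progenitors and Müller glia, the radial support cells that span the tissue, from turning on proneural genes such as Neurog2. How much Notch signalling was blocked in these retinas was not measured.

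Of 22650 genes tested, 1166 were higher in Dll4-Fc (5.15%) and 1541 were lower (6.8%) in limma at a Benjamini-Hochberg adjusted p under 0.05. At least 2-fold as well as past this threshold were 290 genes higher (1.28%) and 369 lower (1.63%). The median difference over all genes was 0.01. Of the 2707 called genes, 2511 had levels that did not overlap between the groups, and of all 22650 genes tested 3210 did not overlap. All 17 rod, 19 Müller glia and 15 ganglion cell genes measured were well above background on all 9 arrays. So were all 15 lens and all 15 lymphocyte genes measured. Over all genes 21102 had a probe at this level, so the flag does not identify the tissue. The share of spots well above background in Cy3 was 85.3 to 90.6% per array, no spot was saturated, and the median standard error of a difference was 0.0875. The number of arrays limits the precision. Correlations of array levels over genes ran from 0.363 to 0.829 in the 6 pairs of Dll4-Fc arrays. They ran from 0.583 to 0.86 in 4 VEGF-A pairs on the same slide and from 0.377 to 0.555 in 6 pairs on different slides. The 20 pairs across the groups ran from −0.364 to 0.123, and since the labels state the dyes, the direction was kept. Levels are relative to a pool of the experiment's own RNA. Correlations near or below 0 across the groups therefore do not by themselves mean opposed profiles. All Dll4-Fc arrays lay on slide 2, VEGF-A 1 and 2 on slide 3 and VEGF-A 3 to 5 on slide 4, so slide and treatment cannot be told apart. These are whole retinas, in which fewer cells of a type and less RNA per cell cannot be told apart either.

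**Figure D1:**
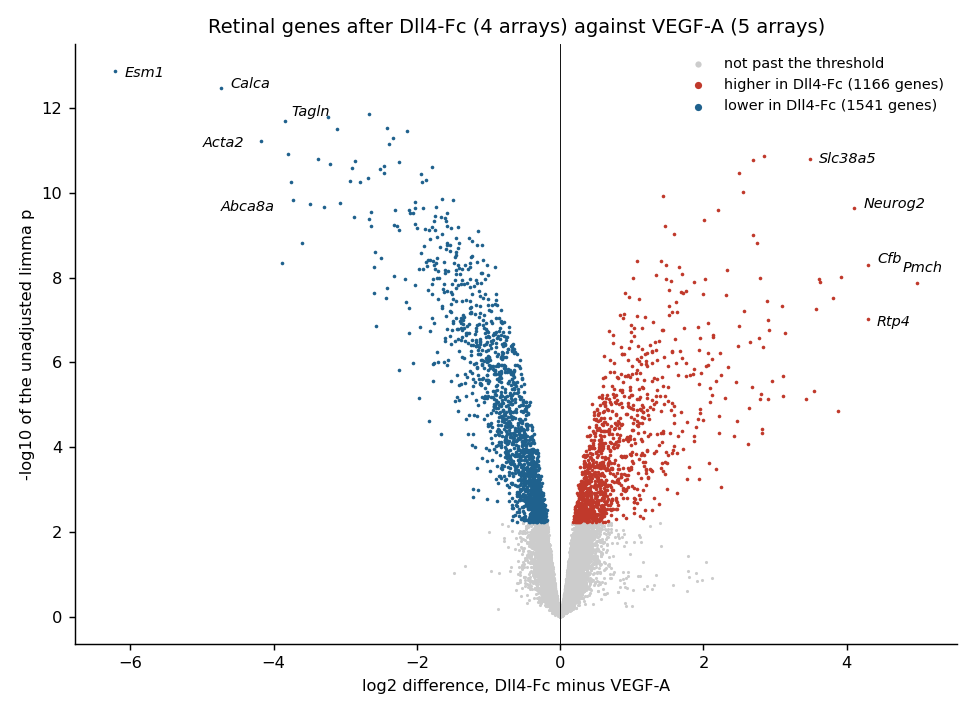
Difference between the groups (x axis, log2, Dll4-Fc minus VEGF-A) against the −log10 of the unadjusted limma p (y axis) for each of 22650 genes, with 1166 genes past the threshold on the right in red and 1541 on the left in blue. Esm1 lies farthest to the left at −6.21 and Pmch farthest to the right at 4.99.

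The genes with the largest falls in Dll4-Fc relative to VEGF-A included tip cell, smooth muscle and vasoactive peptide genes, and those with the largest rises included interferon-induced, complement and proneural genes. The 15 of each direction were picked among genes whose groups do not overlap. A lack of overlap in them, here and where they return below, was therefore fixed by that choice. Esm1, a proteoglycan secreted by tip cells, had levels of −3.85, −4.31, −4.39 and −4.16 on the 4 Dll4-Fc arrays. On the 5 VEGF-A arrays it had 2.21, 1.77, 2.01, 2.2 and 1.99. Every array of each group lay far from every array of the other, and Esm1 was 74.2-fold lower in Dll4-Fc (difference −6.21, SE 0.12, adjusted p = 3.05e-09 in limma). Further Esm1 probes differed by −4.07, −4.28 and −6.05. Calca, which encodes the vasodilator peptide CGRP, had −3.20, −2.97, −3.24 and −3.06 in Dll4-Fc against 1.42, 1.53, 1.93, 1.64 and 1.57 in VEGF-A. Its difference was −4.74 (SE 0.10), but only −2.55 when the probes of the gene were averaged, since another Calca probe differed by −0.37. The 15 largest falls had differences from −6.21 to −3.11, and among them were Esm1, Calca, Acta2, Ch25h, Tagln, Dmp1, Plaur, Abca8a, Edn2, Kcne3, Olfml2b, Btnl9, Ccn1 and Tnfrsf12a. These include smooth muscle actin (Acta2) and transgelin (Tagln), the urokinase receptor (Plaur), endothelin 2 (Edn2) and the cholesterol hydroxylase Ch25h.

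On the other side, Pmch, the precursor of melanin-concentrating hormone, had levels of 1.99, 2.43, 1.96 and 0.54 in Dll4-Fc. In VEGF-A it had −3.40, −3.10, −3.45, −3.05 and −3.29. Dll4-Fc 4 was the lowest of its group but still above every VEGF-A array, and the difference was 4.99 (SE 0.31, 31.7-fold, adjusted p = 1.81e-06 in limma). A further Pmch probe differed by 0.66 and the probe mean by 2.82. The 15 largest rises had differences from 4.99 to 3.11, and among them were Pmch, Cfb, Rtp4, Neurog2, Ifi27l2a, Usp18, Vxn, Spp1, Ifi204, Tgtp1, Slc38a5, Ccl5, Apoc2 and Isg15. Of these, Rtp4, Ifi27l2a, Usp18, Ifi204, Tgtp1 and Isg15 are known as genes induced by interferon. Neurog2 and Vxn act in neurogenesis, and Slc38a5 is an amino acid transporter of brain and retinal vessels. Tgtp1 had a second probe at 0.41 and a probe mean of 1.98. In the plot of the 16 leading genes Usp18 spread among the Dll4-Fc arrays from −0.24 to 2.54, while Esm1, Tagln and Dmp1 spread by less than 1 within either group.

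**Figure D2:**
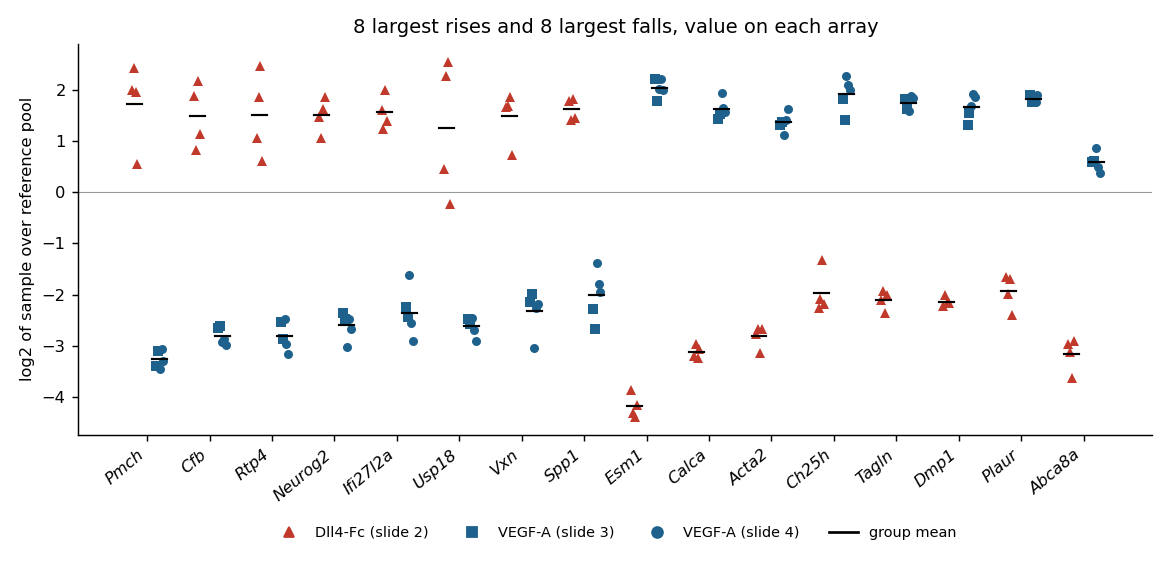
Level on each array (y axis, log2 of sample over the reference pool) of the 8 genes with the largest rises and the 8 with the largest falls in Dll4-Fc. Triangles are Dll4-Fc arrays, squares VEGF-A arrays of slide 3, circles VEGF-A arrays of slide 4, and bars group means. The genes were picked among those whose groups do not overlap.

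Notch target genes were lower in Dll4-Fc than in VEGF-A. Of 15 measured, 11 were lower and 2 higher, with a median difference of −0.51 against 0.01 over all genes. The lower count was 7 without Dll4-Fc 1 and 7 without Dll4-Fc 3. The hairy-type repressors Hes and Hey are the direct outputs of Notch, and Nrarp is a feedback regulator of the pathway. Hes5 had levels of −0.68, −0.67, −0.90 and −1.25 in Dll4-Fc. In VEGF-A its levels were 0.17, 0.43, −0.07, 0.41 and 0.41, all above Dll4-Fc. Its difference was −1.14 (SE 0.14, adjusted p = 2.89e-04 in limma). Hes1 had −0.27, −0.43, −0.75 and −0.69 against 0.87, 0.75, 0.77, 0.44 and 0.41, a difference of −1.18 (SE 0.13). Nrarp differed by −1.25 (SE 0.12), Heyl by −1.12 (SE 0.10), Hey2 by −0.98 (SE 0.10) and Hey1 by −0.49 (SE 0.08), and none of these overlapped between groups. Myc, Id1, Sox9, Id3 and Notch3 made up the other lower members, at −0.54 to −0.41. The exceptions were Hes6, which opposes Hes1 and was higher by 1.02, and Id2, higher by 0.60. Ccnd1 (−0.63) and Fabp7 (0.33) did not pass the threshold. With slide as a random block 7 targets were lower and 1 higher.

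The promoters of Hes5 and Hey2 are shown because both genes were lower and both windows hold the core letters. These letters are bound by RBPJ, the DNA-binding partner of Notch. The windows run from 250 bases before to 50 after the gene's start, from RefSeq on GRCm38.p6, written 5′ to 3′ along the gene with TGGGAA on either strand in capitals. Hes5 is at chr4:154960673-154960972 (plus strand) and Hey2 at chr10:30842734-30843033 (minus strand).
Hes5: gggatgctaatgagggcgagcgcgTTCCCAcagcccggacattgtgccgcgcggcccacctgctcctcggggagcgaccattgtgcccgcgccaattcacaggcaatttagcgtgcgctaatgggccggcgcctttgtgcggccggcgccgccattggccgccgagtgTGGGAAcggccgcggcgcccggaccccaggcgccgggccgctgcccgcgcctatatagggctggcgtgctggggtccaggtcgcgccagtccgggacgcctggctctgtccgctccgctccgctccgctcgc
Hey2: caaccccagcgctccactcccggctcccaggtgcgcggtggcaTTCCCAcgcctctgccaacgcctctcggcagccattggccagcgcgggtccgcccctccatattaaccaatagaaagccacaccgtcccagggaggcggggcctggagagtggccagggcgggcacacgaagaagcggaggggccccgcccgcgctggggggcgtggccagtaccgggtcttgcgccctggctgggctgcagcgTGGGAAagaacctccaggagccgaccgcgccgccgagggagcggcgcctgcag
Each window holds the letters once on either strand. The core was present in 3 of the 8 Notch target genes that had a window (Fabp7, Hes5 and Hey2), and in 28.3% of all 27025 genes with one, so it is common at promoters. The members without the letters in this window were Hes6, Id2, Id3, Notch3 and Nrarp, of which Nrarp, Id3 and Notch3 were lower in Dll4-Fc. A match is a description of the letters and not a bound site.

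Among receptors, ligands and modulators of the pathway, 4 of 20 were lower and 2 higher, with a median difference of −0.08. Dll4 itself had levels of −0.25, −0.39, −0.32 and −0.44 in Dll4-Fc and 1.17, 1.11, 1.3, 1.29 and 1.29 in VEGF-A. Its groups were far apart, and Dll4 was 2.99-fold lower in Dll4-Fc (difference −1.58, SE 0.07, adjusted p = 1.33e-07 in limma). Further Dll4 probes differed by −0.63 and −1.06. The receptor of endothelium, Notch4, was lower by 1.13 on the log2 scale (−1.13, SE 0.09), with 1 VEGF-A array lacking a value. Further Notch4 probes differed by −0.37 and −1.185. The glycosyltransferase Lfng (−1.0) and the mural receptor Notch3 (−0.41) were the other lower members. Notch1, the receptor shared by many cell types, had −0.20, 0.15, −0.27 and 0.59 against 0.46, 0.52, −0.15, 0.26 and 0.24, with overlapping groups and no call (difference −0.20, 95% interval −0.61 to 0.22, adjusted p = 0.626 in limma). The ligands made by differentiating neurons went the other way. Dll1 had 0.56, 0.68, 0.53 and 1.02 in Dll4-Fc against −0.31, −0.37, −0.46, −1.15 and −1.35 in VEGF-A (difference 1.43, SE 0.22). Dll3 was higher by 1.66 (SE 0.10), with all Dll4-Fc arrays between 0.68 and 1.11 and all VEGF-A arrays between −0.83 and −0.60.

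**Figure D3:**
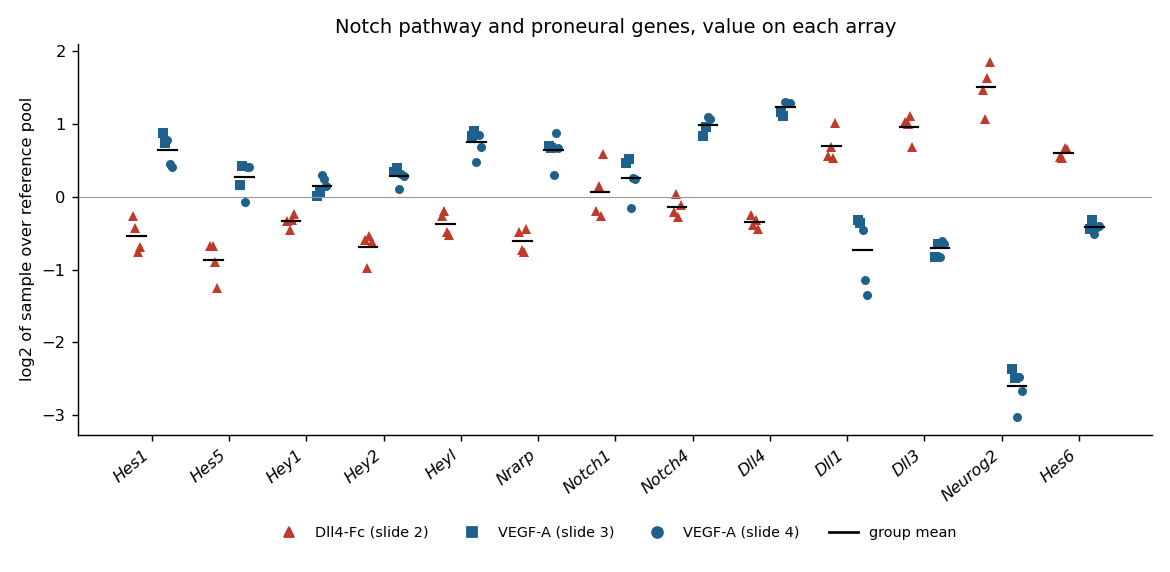
Level on each array (y axis, log2 of sample over the reference pool) of Notch targets, receptors, ligands and proneural genes, with symbols as the slides of the arrays and bars as group means. Hes, Hey and Nrarp lie lower in Dll4-Fc, Dll1, Dll3, Neurog2 and Hes6 lie higher, and Notch1 overlaps.

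Proneural genes, the transcription factors that commit retinal progenitors to neurons, were among the genes with the largest rises. Neurog2 had levels of 1.46, 1.06, 1.63 and 1.85 in Dll4-Fc and −2.37, −2.48, −3.02, −2.47 and −2.67 in VEGF-A. The groups were separated by more than 3 units, and Neurog2 was 17.2-fold higher in Dll4-Fc (difference 4.10, SE 0.17, adjusted p = 1.13e-07 in limma). VEGF-A 3 lay below the other VEGF-A arrays. Of the 19 proneural and progenitor genes measured, 8 were higher and 1 was lower, with a median of 0.20. Beside Neurog2, Dll1, Dll3 and Hes6, the higher ones included Olig2 (1.69), Atoh7 (1.06) and Sox4 (1.05), and the lower one was Lhx2 (−0.67). The factors that mark retinal progenitors more broadly, Pax6 (−0.03), Sox2 (−0.22) and Rax (−0.23), did not pass the threshold. The median turned to −0.07 against the VEGF-A arrays of slide 3, with 7 members higher and 2 lower there.

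Müller glia genes were lower in Dll4-Fc, with 13 of 19 lower, 1 higher and a median of −0.96. Abca8a, a lipid transporter, had levels of −2.96, −3.12, −3.62 and −2.91 in Dll4-Fc and 0.59, 0.60, 0.86, 0.48 and 0.38 in VEGF-A. It was 13.3-fold lower (difference −3.73, SE 0.15, adjusted p = 9.2e-08 in limma), with no Dll4-Fc array within 3 units of a VEGF-A array. Rlbp1, the retinaldehyde-binding protein of Müller glia and pigment epithelium, had −1.12, −1.27, −1.27 and −0.64 against 0.07, 0.03, 0.14, −0.07 and 0.05 (difference −1.12, SE 0.12). Caveolin 1 (Cav1, −2.64), the Wnt antagonist Frzb (−1.78), the glutamate transporter Slc1a3 (−1.63), the potassium channel Kcnj10 (−1.41) and the thyroid hormone-binding protein Crym (−1.38) were lower too. Vim, Gdpd2, Spc25, Car2, Dkk3 and Sox9 made up the rest, from −1.82 to −0.51. Glutamine synthetase (Glul, 0.36), Clu (−0.32) and Apoe (−0.12) did not pass, and the water channel Aqp4 was higher by 0.93. The median level of the list was −1.02, −1.15, −1.21 and −0.49 on the Dll4-Fc arrays and 0.07, 0.19, 0.35, 0.00 and 0.04 on the VEGF-A arrays. Dll4-Fc 4 thus lay closest to VEGF-A.

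Most genes of glial reaction were lower as well. In the gliosis and retinal stress list 12 of 20 were lower and 1 higher, with a median of −0.44. Edn2, made by photoreceptors under stress, had −1.93, −2.07, −1.73 and −1.41 in Dll4-Fc and 1.78, 1.48, 2.36, 1.63 and 1.85 in VEGF-A (difference −3.61, SE 0.18, 12.2-fold lower). The filament genes Nes (−2.33), Vim (−1.82) and Gfap (−1.27) were lower, as were Timp1 (−1.60), Cd44 (−1.26), the oncostatin receptor Osmr (−1.25) and Fgf2 (−1.04). Gfap levels spread from −0.79 to 0.15 in Dll4-Fc and from 0.91 to 1.15 in VEGF-A. Lcn2, an acute-phase protein, was the higher member at 2.24. Serpina3n (1.102) and Steap4 (1.035) also had positive differences but did not pass the threshold (adjusted p = 0.0825 and 0.111 in limma). Of the other members without a call, Gap43, Mt1 and Cp had small positive differences, and Mt2 and Cntf small negative ones. Astrocytes form the network that guides retinal vessels. Of 10 astrocyte genes 4 were lower, Gfap, Agt, Aldoc and Aldh1l1, none was higher and 6 were not called. The list's level overlapped between the groups, from −0.42 to 0.08 in Dll4-Fc and from 0.04 to 0.32 in VEGF-A. Agt, angiotensinogen, differed by −1.18 (SE 0.10), with −1.14 to −0.78 in Dll4-Fc and 0.02 to 0.41 in VEGF-A. The calls of Aldoc and Aldh1l1, at −0.42 and −0.41, were lost in several settings, for instance with slide as a random block (adjusted p = 0.0602 and 0.0611 in limma). The astrocyte factor Pax2 (0.03) and the platelet-derived growth factor receptor Pdgfra (−0.28) were not called.

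Endothelial tip cell and sprouting genes were lower, 14 of 20, with 2 higher and a median of −1.21. Besides Esm1, Plaur and Kcne3, the peptide apelin (Apln) had −1.19, −1.71, −1.58 and −1.49 in Dll4-Fc against 1.42, 1.34, 1.64, 1.43 and 1.37 in VEGF-A (difference −2.93, SE 0.11). Angpt2, the Tie2 ligand of remodelling vessels, differed by −2.69 (SE 0.10). Pdgfb, which recruits pericytes, differed by −1.80. The 2 higher members were Trp53i11 (0.59) and Adm, adrenomedullin. Adm had 0.56, 0.03, 0.40 and 0.75 in Dll4-Fc against −1.09, −0.96, 0.18, −0.91 and −1.07 in VEGF-A. VEGF-A 3 overlapped the Dll4-Fc arrays, and the difference of 1.2 (SE 0.26, adjusted p = 0.0101 in limma) lost its call against the VEGF-A arrays of slide 4 (1.03, adjusted p = 0.0702). Of 21 VEGF-responsive endothelial genes 15 were lower and 1, the nuclear receptor Nr4a2 (0.44), was higher, with a median of −0.83. Prss23 (−2.58), Plau (−2.17), Plat (−2.14), Adamts1 (−1.94) and the fenestral diaphragm protein Plvap (−1.62) were among the lower ones.

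Among VEGF ligands and receptors 5 of 9 were lower. The receptors Flt1 (−1.34, SE 0.14), Kdr (−0.81, SE 0.15), Flt4 (−0.71, SE 0.10) and Nrp1 (−0.66, SE 0.11) and the ligand Pgf (−1.63, SE 0.11) were all lower in Dll4-Fc. Further Flt1 probes differed by −2.25, −0.13 and −0.09, and further Nrp1 probes by −0.32, −0.26 and −0.82. Kdr had −0.70, −0.80, −0.53 and 0.04 against 0.43, 0.37, 0.39, 0.13 and 0.23, so Dll4-Fc 4 lay just under the lowest VEGF-A array. The Vegfa transcript itself was higher. Its levels were −0.51, −0.62, −0.69 and −0.40 in Dll4-Fc and −0.98, −0.98, −1.44, −1.69 and −1.78 in VEGF-A, a difference of 0.82 (SE 0.17, adjusted p = 0.0094 in limma). Against slide 3 alone the Vegfa difference was 0.43 (adjusted p = 0.0229) and against slide 4 alone 1.08. Vegfb (0.18), Vegfc (−0.20) and Nrp2 (−0.22) were not called.

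Pan-endothelial genes were lower in 16 of 21 cases, with 3 higher and a median of −0.83. Endomucin (Emcn) had −0.72, −0.65, −0.65 and −0.55 in Dll4-Fc against 1.26, 1.34, 1.27, 1.44 and 1.61 in VEGF-A, a difference of −2.03 (SE 0.08). Pecam1 (−1.29), Eng (−1.2), Robo4 (−1.12), Erg (−0.91) and Cdh5 (−0.74), known as markers of all endothelium, were lower too. Tie1 (0.02) and Tek (0.02) were not called, and Clec14a (0.27), Vwf (0.37) and Cldn5 (0.50) were higher. Barrier endothelial genes, which mark tight vessels of brain and retina, went the other way, with 7 of 16 higher, 1 lower and a median of 0.35. Slc38a5 had 0.52, 0.69, 0.64 and 0.76 in Dll4-Fc against −3.15, −2.93, −2.62, −2.63 and −2.84 in VEGF-A. It was 11.2-fold higher with tight groups (difference 3.49, SE 0.11, adjusted p = 2.3e-08 in limma). The thyroid hormone transporter Slco1c1 was higher by 2.78 (SE 0.17), the Wnt target Apcdd1 by 1.17, Tnfrsf19 by 0.92, the lipid transporter Mfsd2a by 0.61, claudin 5 (Cldn5) by 0.50 and Slc7a5 by 0.31. The efflux pump Abcg2 was lower (−0.72).

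Norrin and its receptor Fzd4 drive this barrier programme, and both were lower. Ndp, the norrin gene of Müller glia, differed by −1.43 (SE 0.08), Fzd4 by −1.13 (SE 0.08) and the co-receptor Tspan12 by −0.51. In the Norrin and Wnt list 6 of 20 were lower and 1, Apcdd1, was higher. Lef1 (−0.10) and Axin2 (0.04), common targets of the pathway, were not called. Arterial genes had 3 lower (Hey2, Nrp1 and Hey1) and 1 higher (Fbln5, 1.08) of 13, with a median of −0.23. Venous genes had 3 higher of 8, the apelin receptor Aplnr (2.00, SE 0.09), Slc38a5 and Vwf. Among angiopoietin and Tie genes Angpt2, Angptl2 (−1.43) and Angptl4 (−0.35) were lower. Angpt4 (1.57, SE 0.11) and the phosphatase Ptprb (0.76, SE 0.12) were higher, while further Angpt4 probes differed by 0.15 and 0.13. In the TGF-beta and BMP list 7 of 22 were lower, led by Tgfb1 (−1.58) and endoglin (Eng), and 4 higher, led by Tgfbi (2.09), with a median of −0.05. Without Dll4-Fc 4 the lower arterial genes were 5, and the higher TGF-beta and BMP genes were 2 without any one of Dll4-Fc 1, Dll4-Fc 2, VEGF-A 4 and VEGF-A 5.

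Contractile smooth muscle genes were lower almost throughout, 12 of 13 with none higher and a median of −1.77. Acta2 had levels of −2.77, −2.66, −3.15 and −2.68 in Dll4-Fc and 1.32, 1.37, 1.12, 1.4 and 1.62 in VEGF-A. The difference was −4.18 (SE 0.12, 18.1-fold lower, adjusted p = 1.38e-08 in limma), and −2.50 over the mean of its probes. Tagln differed by −3.85 (SE 0.10), tropomyosin Tpm2 by −2.31 (SE 0.10) and the myosin light chain Myl9 by −1.87 (SE 0.11). Calponin (Cnn1, −2.42), Actg2 (−2.44) and desmin (Des, −1.77) followed. The late marker of mature muscle Myh11 (−0.21) did not pass. The list's level ran from −0.86 to −0.57 in Dll4-Fc and from 0.80 to 1.34 in VEGF-A. Pericyte genes, for the cells that wrap capillaries, were divided, with 6 lower and 5 higher of 14. Mcam (−2.43), the proteoglycan Cspg4 (−1.59), Foxd1, Foxc1, Pdgfrb (−0.44) and Notch3 were lower. Without Dll4-Fc 1, and likewise without Dll4-Fc 3, 3 pericyte genes were lower. The channel subunits Kcnj8 (2.14) and Abcc9 (0.66), with Ndufa4l2 (1.48), Anpep (1.25) and Higd1b (1.21), were higher, and Rgs5 (0.09) was not called.

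Genes of the vessel wall matrix and of its breakdown were lower. In the basement membrane and matrix list 10 of 17 were lower, led by the laminin chains Lama4 (−1.68) and Lamc1 (−1.46), collagen Col4a1 (−1.59) and the nidogens Nid1 (−1.46) and Nid2 (−1.38). Col3a1 was the higher member (1.1), and the median was −0.62. In the pericellular proteolysis list 11 of 18 were lower and none higher, with a median of −0.77. Plaur had −1.65, −1.99, −1.70 and −2.39 in Dll4-Fc against 1.89, 1.76, 1.79, 1.76 and 1.89 in VEGF-A. Its difference was −3.75 (SE 0.14). Mmp3 (−2.32), Plau, Plat, Adamts1, Timp1, Adamts9, Adamts5, Mmp14 and Adamts4 were among the others, while the gelatinases Mmp2 (0.14) and Mmp9 (0.06) were not called. Among axon guidance families, 7 of 25 were lower, led by the semaphorin receptor Plxnd1 (−1.62), Epha2 (−1.46) and Robo4. The higher 5 were Sema3c (0.61), Robo2 (0.45), Sema3e (0.43), Slit1 (0.43) and Plxna1 (0.26). Leaving out single arrays left 1 to 5 of these families' genes higher, with 1 without Dll4-Fc 1, and none was higher against slide 4 alone.

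Vasoactive genes were lower in 9 of 28 cases and higher in 4. After Calca, Edn2 and Apln, the vasoconstrictor Edn1 differed by −2.29 (SE 0.10). The nitric oxide synthases Nos2 (−1.16) and Nos3 (−1.04), angiotensinogen, the prostacyclin synthase Ptgis (−0.67) and the endothelin receptor Ednrb (−0.68) were lower. The higher members were Aplnr, Ednra (1.55), Adm and Ptgs1 (0.57). The CGRP and adrenomedullin receptor genes Calcrl (−0.32), Ramp1 (0.28), Ramp2 (−0.09) and Ramp3 (0.07) were not called. Among the genes of the IGF axis the binding proteins Igfbp3 (−1.04), Igfbp4 (−0.72) and Igfbp7 (−0.67) were lower, and the imprinted RNA H19 was higher (1.76, SE 0.17). The calls of Igfbp4 and Igfbp7 were lost in some settings. Igfbp4 had an adjusted p of 0.0631 in limma with slide as a random block, and Igfbp7 had 0.0892 against slide 3 alone. Ch25h, which makes 25-hydroxycholesterol, had −2.27, −2.09, −1.32 and −2.19 in Dll4-Fc against 1.81, 1.4, 2.27, 2.09 and 1.99 in VEGF-A (difference −3.88, SE 0.22). Of the sterol genes the synthesis gene Cyp51 (−0.40) was lower, without a call against slide 3 alone. The exporter Abca1 (1.19) and the ubiquitin ligase Mylip (0.40) were higher.

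Growth signalling and cell division genes were lower in Dll4-Fc. Of 15 genes induced by ERK as its feedback 9 were lower and none higher, with a median of −0.48, led by Etv4 (−2.51, SE 0.14), Dusp2 (−1.37), Dusp6 (−1.21), Etv1 (−1.03) and Spry1 (−0.97). Of 20 immediate early genes, the first to respond to a stimulus, 12 were lower and none higher, with a median of −0.62. Ccn1 had −1.76, −1.63, −1.87 and −1.61 against 1.71, 1.58, 1.39, 1.53 and 1.46, a difference of −3.25 (SE 0.08). Maff (−2.91), Ccn2 (−2.79), Egr2 (−2.25), Egr1 (−2.06) and Fosl1 (−1.54) followed, and Fos (−0.98) was lower, while Jun (−0.23) and Junb (−0.52) were not called. Of 21 mitosis genes 19 were lower and none higher, with a median of −1.07. Ccnb1, cyclin B1, had −0.16, −0.37, −0.30 and −0.36 in Dll4-Fc against 1.4, 1.25, 1.48, 1.43 and 1.28 in VEGF-A (difference −1.66, SE 0.07, adjusted p = 1.52e-07 in limma). Cdk1 (−1.48), Mki67 (−1.23) and Top2a (−1.14) were lower as well, and a second Cdk1 probe differed by −0.29, with a probe mean of −0.88. Of 24 DNA replication genes 13 were lower with a median of −0.27, among them Uhrf1 (−1.38), Tyms (−1.19), Rrm2 (−1.03) and Mcm6 (−0.79), and Pcna by the smallest amount (−0.21).

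**Figure D4:**
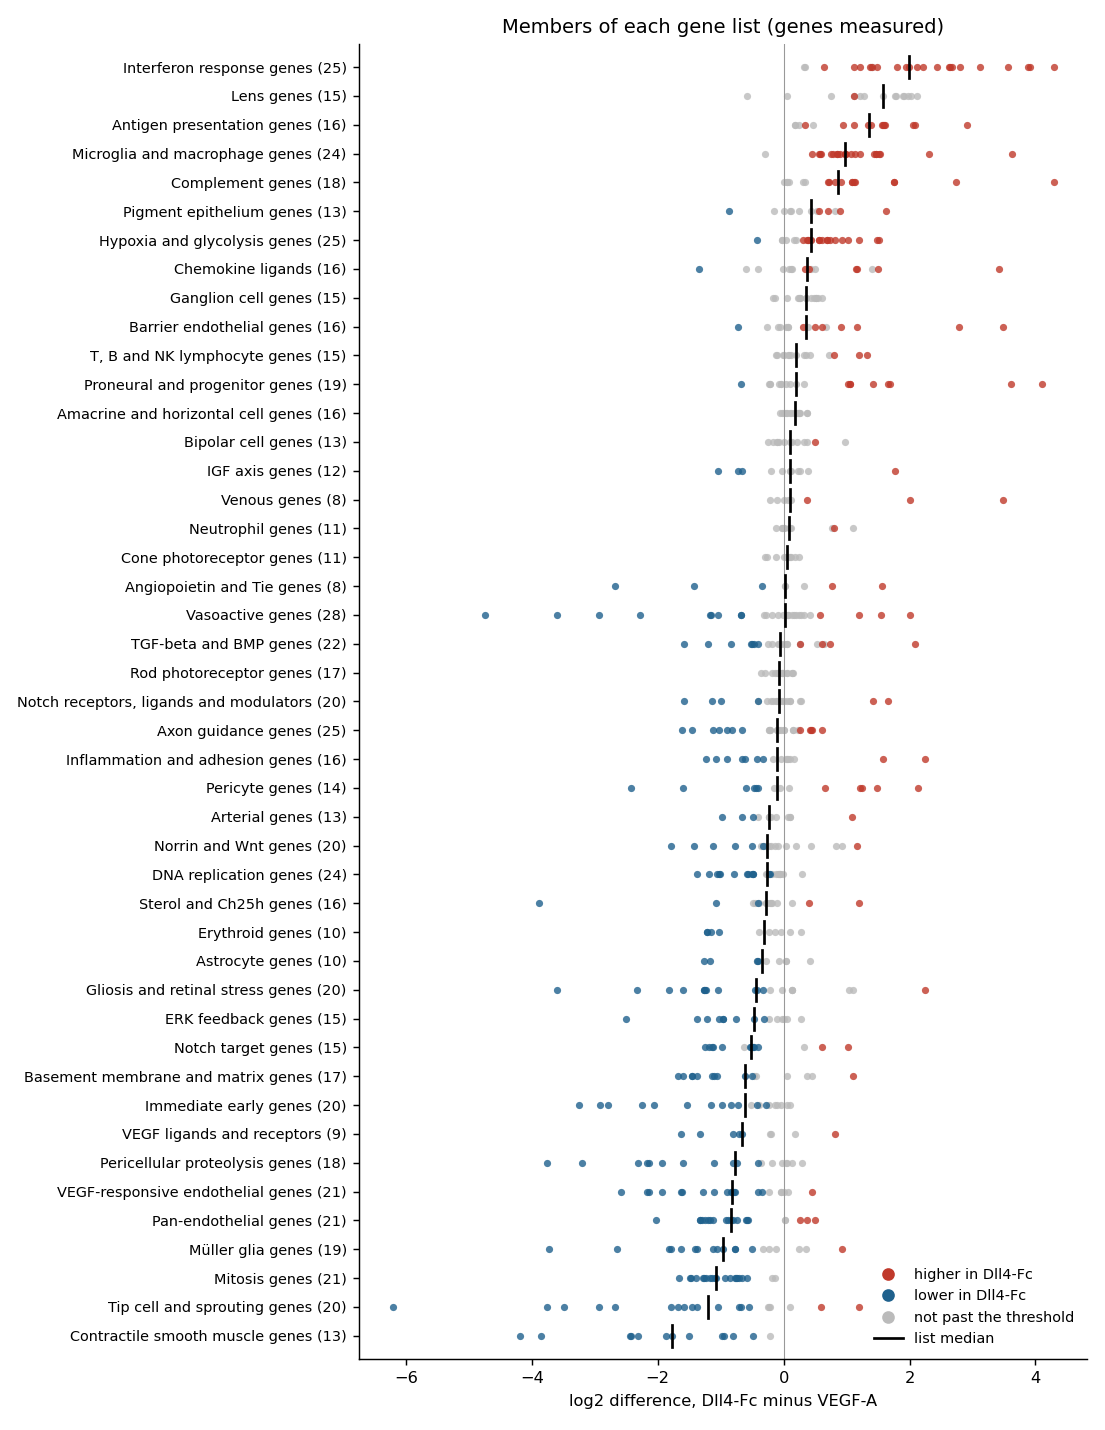
Difference of each measured member (x axis, log2, Dll4-Fc minus VEGF-A) in 45 gene lists, ordered by the list median (black bar), with the number of genes measured in brackets. Contractile smooth muscle genes have the lowest median, −1.77, and interferon response genes the highest, 1.99, while the rod, cone, amacrine and ganglion cell lists hold no called gene.

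Interferon response genes were higher in Dll4-Fc, 21 of 25 with none lower and a median of 1.99. One of the 21, Ifit1 (0.65), was well above background on the 4 Dll4-Fc arrays and no VEGF-A array, so it passed the filter only through the group where it was high. These genes are switched on by interferon receptors through dedicated transcription factors. Isg15, a ubiquitin-like protein, had 0.89, 1.55, 2.22 and 0.22 in Dll4-Fc against −1.59, −2.07, −2.06, −1.80 and −1.96 in VEGF-A. No array overlapped, and the Dll4-Fc arrays spread more widely than the VEGF-A arrays. Isg15 was 8.65-fold higher (difference 3.11, SE 0.33, adjusted p = 8.37e-05 in limma). Rtp4 had 1.06, 1.86, 2.46 and 0.61 against −2.54, −2.87, −2.48, −2.96 and −3.16 (difference 4.3, SE 0.33). Usp18, a brake on the receptor, had 0.45, 2.27, 2.54 and −0.24 against −2.90 to −2.46 (difference 3.88, SE 0.50). The antiviral genes Oas1a (2.64), Mx2 (2.63), Ifit3 (2.43) and Bst2 (2.68) and the factor Irf7 (1.94) were higher. Cxcl10 (1.41), Rsad2 (1.39), Ifit2 (0.34) and Stat2 (0.33) were not called. The list's level was 0.55, 1.09, 2.06 and 0.22 on Dll4-Fc 1 to 4, and between −1.12 and −0.68 on the VEGF-A arrays. Dll4-Fc 3 was the highest and Dll4-Fc 4 the lowest in the list as in these genes.

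The promoters of Isg15 and Ifit3 are shown because both genes were higher and both windows hold the interferon-stimulated response element, GAAANNGAAA on either strand. It is in capitals, with overlapping matches run together, in RefSeq windows of GRCm38.p6 written 5′ to 3′ along the gene. Isg15 is at chr4:156200769-156201068 (minus strand) and Ifit3 at chr19:34583279-34583578 (plus strand).
Isg15: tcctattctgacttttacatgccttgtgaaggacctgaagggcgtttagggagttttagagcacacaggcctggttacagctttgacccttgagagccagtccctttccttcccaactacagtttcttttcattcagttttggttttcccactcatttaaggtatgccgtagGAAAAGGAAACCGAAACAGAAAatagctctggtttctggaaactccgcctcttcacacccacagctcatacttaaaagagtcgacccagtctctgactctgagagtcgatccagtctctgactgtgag
Ifit3: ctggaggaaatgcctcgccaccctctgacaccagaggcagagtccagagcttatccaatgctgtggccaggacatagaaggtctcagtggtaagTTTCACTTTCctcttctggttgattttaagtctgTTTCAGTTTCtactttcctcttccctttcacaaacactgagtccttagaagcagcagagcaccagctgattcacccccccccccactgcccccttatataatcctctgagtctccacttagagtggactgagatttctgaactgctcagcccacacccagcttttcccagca
Of the interferon response genes 16 had a window and 12 of those held the element, which 3.99% of all 27025 genes with a window hold. The members without the letters in this window were Ifi44, Ifit2, Irf7 and Oasl2, of which Ifi44, Irf7 and Oasl2 were higher in Dll4-Fc. Cxcl10, Rsad2 and Stat2 held the element and were not called. The shares are a description of the sequences and were not tested.

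Antigen presentation, complement and microglia genes were higher together with them. Of 16 antigen presentation genes 12 were higher and none lower, with a median of 1.36. The class II genes Cd74 (2.91, SE 0.24), H2-Aa (2.08), H2-Ab1 (1.61) and H2-Eb1 (1.60), the class I genes H2-K1 (2.06) and H2-D1 (1.12), B2m (1.56) and the proteasome subunits Psmb8 (1.59) and Psmb9 (1.34) were among them. B2m lost its call in the Cy3 channel alone (0.85, adjusted p = 0.368 in limma). Of 18 complement genes 12 were higher and none lower, with a median of 0.86. Cfb, factor B of the alternative pathway, had 1.87, 0.81, 2.16 and 1.14 in Dll4-Fc against −2.66, −2.61, −2.93, −2.86 and −2.98 in VEGF-A. It was 19.7-fold higher (difference 4.3, SE 0.24, adjusted p = 9.33e-07 in limma) with no overlap. C3 differed by 2.74 (SE 0.12), over 3 Dll4-Fc arrays, while a further C3 probe differed by 0.16. The inhibitor Serping1 (1.76), C2 (1.75) and the C1q chains C1qa (0.70), C1qb (0.91) and C1qc (0.81) were higher, and Cfd (0.01) and Cfi (0.34) were not called.

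Microglia and macrophage genes were higher in 22 of 24 cases with none lower, and a median of 0.97. Aif1, the microglial protein Iba1, had 0.84, 0.79, 1.14 and 0.88 in Dll4-Fc against −0.60, −0.61, −0.43, −0.50 and −0.65 in VEGF-A, a difference of 1.47 (SE 0.08, adjusted p = 9.36e-07 in limma). The cytokine Spp1 differed by 3.63 (SE 0.22), and by 4.09 against slide 3 and 3.33 against slide 4 alone. The Fc receptors Fcgr1 (2.31) and Fcgr3 (0.58), which bind the Fc part of antibodies, were higher, as was Fcer1g (1.52). Cx3cr1 (1.07), Csf1r (0.78), Trem2 (0.85) and Tmem119 (0.46) were higher, whereas P2ry12 (−0.30), a marker of resting microglia, was not called. The list's level lay between 0.36 and 0.80 in Dll4-Fc and between −0.46 and −0.29 in VEGF-A. Among chemokines 6 of 16 were higher and 1 lower. Ccl5 had 1.45, −0.10, 2.59 and 1.44 against −2.27 to −1.78 (difference 3.43, SE 0.41), and Ccl12 (1.49), Cxcl9 (1.16), Ccl9 (1.15), Ccl17 and Cxcl14 were higher. Cxcl9 had an adjusted p of 0.0551 in limma against slide 3 alone. Cxcl12, made by endothelium and stroma, was lower (−1.34).

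Other genes of inflammation were divided. In the inflammation and adhesion list 7 of 16 were lower, among them Cebpd (−1.24), the interleukin 1 receptor Il1r1 (−1.08), Vcam1 (−0.90), Il1a (−0.66) and Il6. Il6 differed by −0.42 and was well above background on 2 of the 4 Dll4-Fc arrays only, and its size depended on the scale, with −1.99 in the scanner software's ratios. Saa3 (1.58, SE 0.22) and Lcn2 were higher, Saa3 by 3.53 in the scanner software's ratios and 3.67 in Cy3 alone, and Tnf (0.16), Il1b (0.04), Icam1 (−0.04) and Nfkbia (0.10) were not called. Of 11 neutrophil genes 1, Csf3r (0.81), was higher and none lower, beside 5.15% of all genes higher. Elane (−0.03) and Mpo (−0.02) were not called. S100a9 (1.11, adjusted p = 0.0915 in limma) and S100a8 (0.77, adjusted p = 0.0895) were not called either. The neutrophil list median was 0.09, and 0.97 with the series matrix values. Of 15 lymphocyte genes Ighm (1.32), Cd79b (1.2) and Cd3d (0.79) were higher, while the defining genes Cd3e (0.09), Cd4 (0.07), Cd8a (0.00) and Ms4a1 (0.20) were not called. The call of Cd3d was lost in 8 settings, such as slide as a random block (adjusted p = 0.0827 in limma), and its difference ran from 0.56 to 2.68 over settings. Further Ighm probes differed by 1.13 and 0.03, with a probe mean of 0.83.

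Genes of the response to low oxygen and of glycolysis were higher in 16 of 25 cases with 1 lower, and a median of 0.44. Bnip3, a mitophagy receptor, had 0.41, −0.03, 0.37 and 0.10 in Dll4-Fc against −1.37, −1.47, −1.17, −1.36 and −1.16 in VEGF-A (difference 1.52, SE 0.11, adjusted p = 4.66e-06 in limma). Ndufa4l2 (1.48, SE 0.09), Pdk1, which blocks pyruvate use (1.02, SE 0.13), Ankrd37 (0.92), Vegfa, Mif (0.74), the oxygen sensor Egln3 (0.69), Aldoa (0.69), Hk2 (0.56), Pgk1 (0.56) and Ldha (0.30) were higher. Aldoc was the lower one, and Slc2a1 (0.39) and Car9 (0.03) were not called. The list's level was below the pool in both groups, lying between −0.24 and −0.09 in Dll4-Fc and between −0.78 and −0.47 in VEGF-A. It lay between 0.34 and 0.42 in VEGF Trap.

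Few genes of mature retinal neurons passed the threshold. None of 17 rod, 11 cone, 16 amacrine and horizontal cell or 15 ganglion cell genes was called, with list medians of −0.07, 0.05, 0.18 and 0.36. The ganglion cell genes had list levels of −0.79 and −0.64 on VEGF-A 1 and 2, on slide 3, and −0.04, 0.00 and 0.08 on VEGF-A 3 to 5, on slide 4. Against slide 3 alone 10 of the 15 were higher and the median was 0.71, and against slide 4 alone it was 0.02, with none higher and 1 lower. Of 13 bipolar cell genes the calcium-binding protein Cabp5 (0.50) was called, and its call was lost in 11 of 26 settings. Lens genes, which mark tissue outside the retina, had a median of 1.58, with 1 of 15 called, the filament gene Bfsp2 (1.11). Bfsp2 overlapped between the groups, and its call was lost in 6 settings, such as slide 3 alone (adjusted p = 0.188 in limma). Without Dll4-Fc 4 the lens median was 2.53, with 5 called. The list level was −0.39, 0.35, 0.72 and −3.47 on the Dll4-Fc arrays and −2.36, −0.01, −3.46, −2.19 and −3.54 on the VEGF-A arrays. Lens genes thus varied from array to array within both groups, and their part in the results was not tested. Pigment epithelium genes were higher in 4 of 13 cases (Mlana, Pmel, Dct and Slc16a8) and lower in 1 (Rrh, −0.86), with a list level of 0.65 on Dll4-Fc 4 and −0.08 to 0.07 on the other Dll4-Fc arrays. Mlana (1.63) and Pmel (0.89) lost their calls with the VEGF Trap arrays in the fit (adjusted p = 0.0879 and 0.118 in limma), and 2 pigment epithelium genes were higher without Dll4-Fc 1. The red cell genes Hbb-b2 (−1.22), Hbb-bt (−1.22), Hba-a1 (−1.15) and Alas2 (−1.03) were lower, without calls against slide 4 alone. The globin genes are close copies of each other, so their probes may share signal. Red cells carry these transcripts, and their part in the vascular differences was not tested.

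The VEGF Trap arrays, which share slides 3 and 4 with VEGF-A, were set beside both groups as a description without a test, since VEGF Trap binds VEGF-A. Of the 1541 genes lower in Dll4-Fc, the VEGF Trap mean was nearer to Dll4-Fc for 1235 (80.1%) and nearer to VEGF-A for 306 (19.9%). Of the 1166 higher genes it was nearer to Dll4-Fc for 498 (42.7%) and nearer to VEGF-A for 668 (57.3%). Among called tip cell genes 15 of 16 were nearer to Dll4-Fc, as were 12 of 12 contractile, 19 of 19 mitosis and 16 of 17 hypoxia genes. Esm1, for example, had a VEGF Trap mean of −5.77 and Acta2 one of −2.54. The opposite held for 21 of 21 interferon response, 20 of 22 microglia, 8 of 9 proneural and 10 of 14 Müller glia genes, whose VEGF Trap means were nearer to VEGF-A. Abca8a had a VEGF Trap mean of 0.58, Rlbp1 of 0.06, Neurog2 of −1.05 and Cfb of −2.22. Notch target genes were split, 6 nearer to Dll4-Fc and 7 nearer to VEGF-A, with VEGF Trap means of 0.00 for Hes1 and −0.14 for Hes5.

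Because VEGF-A lay on 2 slides, each could be set against the Dll4-Fc arrays on its own. Against the 2 arrays of slide 3 there were 1888 genes higher and 1689 lower, and against the 3 arrays of slide 4 there were 830 higher and 1324 lower. The 155 genes covered by the naming rule, nearly all of them called with both slides together, had the same sign against either slide. Their differences on the 2 slides lay a median of 0.13 apart and at most 0.77 apart, for Spp1. Vegfa (0.43 and 1.08), Dll1 (1.04 and 1.68) and Ch25h (−3.57 and −4.09) also lay among the widest gaps. Both of these comparisons share the Dll4-Fc arrays. Slide 2 held Dll4-Fc alone, so its own effect cannot be told apart from the treatment.

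**Figure D5:**
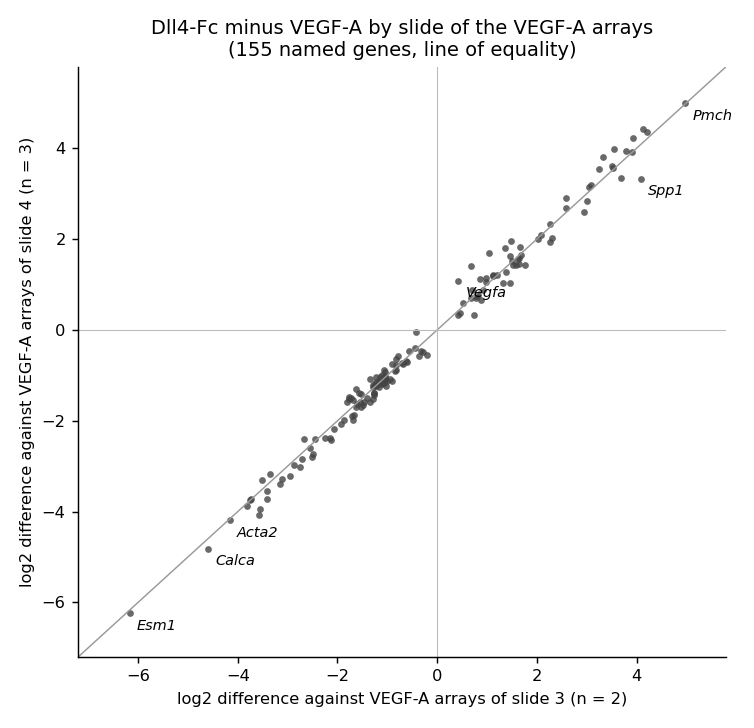
Difference (log2, Dll4-Fc minus VEGF-A) against the 2 VEGF-A arrays of slide 3 (x axis) and against the 3 of slide 4 (y axis) for the 155 named genes, with the line of equality. The points keep their sign on both axes and lie a median of 0.13 apart, with Spp1 the farthest from the line at a gap of 0.77.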

How the data were processed

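The arrays were 2-colour Agilent 4x44k arrays. Per the file headers, the intensity values are mean signals and local background medians from Agilent Feature Extraction 9.5.1.1, and the log10 LogRatio is Cy5 over Cy3. The authors deposited a series matrix in natural log, which equalled the LogRatio turned to sample over reference (correlation at least 0.999, slope 2.28 to 2.3 per log10 unit). Its column medians were 0.00737, 0.0116, 0.0116 and 0.00127 for Dll4-Fc 1 to 4 and −0.00354, −0.000165, 0.00888, −0.00581 and −0.00401 for VEGF-A 1 to 5, so it was not centred, and 26.0 to 27.9% of probes lacked a value there, for a reason not stated in these sources. Deposited flags mark outlier spots (left out, 12 to 213 per array) and spots well above background.

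Intensities were corrected by normexp (offset 50), normalized within arrays by loess and expressed as log2 ratios, Cy3 over Cy5. Of 43426 probes, 38608 well above background on at least 4 of 9 arrays were kept. Probes were named through RefSeq by accession (26247), symbol (6853) or older symbol (3167), or kept the file's name (7159). Each gene took its brightest probe. Further probes are printed for some genes only, so silence does not mean that they gave the same size. A further probe differed by −0.01 for Lama4, −0.01 for Tyms, −0.20 for Cxcl12, −0.22 for Timp1 and 0.02 for Btnl9. The remaining probes of these genes were lower in Dll4-Fc. Limma 3.58.1 (with data.table version 1.17.8 and statmod 1.5.0 in R 4.3.3) fitted 2 groups with 7 residual and 3.24 prior degrees of freedom, 2-sided, and was tested on simulated data. Differences near the background are understated by the offset.

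Gene lists (45, with 705 genes, 76 of them in more than 1 list) and members were chosen with earlier results of these data known. Genes were named where they held one of the 15 most positive or 15 most negative differences past the threshold (RefSeq symbol, well above background throughout a group, measured on 9 arrays, no overlap), ranked by p among the first 4 called in a list, or belonged to 20 pathway genes. Other list members were named after their values were seen. A list level is the median level of its measured members on an array. The alternatives changed the correction, normalization, channel, probe filter, probe choice, slide handling, arrays and variance model. Some genes are not reported here.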

Additional observations from a re-analysis of the deposited data

Results flagged for a closer look

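Of 393 groups of values examined, one per named gene or gene list level and treatment, 17 (4.33%) held an array whose gap to the nearest other array of its group was large for the group's whole range, and chance alone gives about 1 group in 20. In the VEGF-A group the array standing apart was VEGF-A 3 for Vxn (−3.03, against −2.27 to −1.99 on the others), Adm (0.18, against −1.09 to −0.91), Aldh1l1 (0.70) and Epha2 (1.14). It was VEGF-A 1 for the level of amacrine and horizontal cell genes (−0.31, against −0.16 to −0.12).

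In the Dll4-Fc group Dll4-Fc 2 stood apart for Saa3 (0.091, against 1.17 to 1.25 on the others), Pdk1 (−0.11, against 0.31 to 0.35), Timp1 (−0.48) and Cabp5 (0.20). It did so for the levels of hypoxia and glycolysis genes (−0.24, against −0.10 to −0.09), angiopoietin and Tie genes (−0.047) and ganglion cell genes (−0.15). Dll4-Fc 4 stood apart for Vxn (0.73, against 1.66 to 1.85) and Ndp (−0.38), and Dll4-Fc 3 for Serping1 (1.24), Col4a1 (−0.66) and the level of lymphocyte genes (0.33, against 0.11 to 0.14).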

How the results depend on the processing

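No paired analysis was possible because the labels give the groups no shared replicate numbers. Slide is confounded with treatment, and 4 against 5 arrays limit what small differences can pass. Across 26 settings no named gene changed direction, and 17 of 154 called named genes lost the call somewhere, in 67 of 4027 combinations of gene and setting. Nearly all named genes were picked among those called in the main fit, so a kept direction was partly fixed by that choice. Of all 2707 main calls, the smallest share kept was 72.4%, against the VEGF-A arrays of slide 4. The counts of 1166 higher and 1541 lower genes moved by over 1.5 times only against the VEGF-A arrays of slide 3, with 1888 higher. Slide as a random block (correlation 0.125) left 821 higher and 1214 lower, and the Cy3 channel alone, which moved the median of all genes to 0.07, gave 1129 and 1182. Leaving out single arrays gave 837 to 1299 higher and 1240 to 1551 lower. Adding a scaling between arrays, chosen after seeing the data, gave 1215 and 1555.

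The directions of the list medians with most members called held in every setting, while their sizes moved. Tip cell and sprouting genes (main −1.21) had −1.39 with the LogRatio column and with the series matrix values, −1.30 with a normexp offset of 10, −1.44 in Cy3 alone and −0.95 over the mean of probes. In Cy3 alone the medians were −0.99 for matrix, −0.68 for proteolysis, 1.01 for complement, 1.13 for microglia, −0.35 for DNA replication and −1.19 for mitosis genes. Over the mean of probes they were −0.55 for VEGF-responsive genes, −0.52 for VEGF ligands and receptors, −0.60 for proteolysis, −0.52 for immediate early and −0.85 for mitosis genes. With the series matrix values they were −0.95 for pan-endothelial, 1.18 for complement, −0.72 for immediate early and −1.14 for mitosis genes. Against slide 3 alone they were −0.99 for matrix and −0.84 for proteolysis genes, against slide 4 alone −0.74 for immediate early genes, and with no filter on dim probes −0.40 for ERK feedback genes. Leaving out single arrays gave −1.28 to −1.13 for tip cell genes, −0.68 to −0.55 for VEGF ligands and receptors, −0.82 to −0.71 for proteolysis and −0.72 to −0.56 for immediate early genes. Medians near 0 changed sign for rods (0.042 with median centring and no loess, 0.073 in Cy3 alone), for proneural (−0.068), cone (−0.02), bipolar (−0.041), pericyte (0.021) and vasoactive genes (−0.004) against slide 3, and for Notch receptors and ligands (0.023), TGF-beta and BMP (0.02) and vasoactive genes (−0.065) against slide 4. Leaving out single arrays changed the sign for TGF-beta and BMP (up to 0.054), vasoactive (down to −0.005) and angiopoietin and Tie genes (−0.012). The causes of these shifts were not tested.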
